A study of Homo sapiens with 6 samples.

Results

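The integrated stress response was examined through 10 genes: EIF2S1 and EIF2S3, which encode the alpha and gamma subunits of the translation initiation factor eIF2, the eIF2alpha kinase genes EIF2AK1 (HRI), EIF2AK2 (PKR), EIF2AK3 (PERK) and EIF2AK4 (GCN2), the transcription factor genes ATF4 and DDIT3 (CHOP), and PPP1R15A (GADD34) and PPP1R15B (CReP), which encode the subunits that bring protein phosphatase 1 to eIF2alpha. Members were chosen by name, as the loci of the deposited comparison whose gene column holds one of these symbols, and the rule itself uses no measured value, although earlier results of these data were known when it was made. This gave 10 of 117001 loci, and the same 10 genes among the 24166 genes with values in the libraries. Of these, 9 passed the minimum mean of 1 FPKM and were among the 13025 genes tested, and EIF2AK3 was below it.

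Total RNA was sequenced from HEK293 cells, an established line derived from human embryonic kidney, after depletion of ribosomal RNA. The 3 heat shock libraries came from cell aliquots that spent 30 minutes in a tube in a 45°C water bath, and the 3 control libraries from cells left untreated after growth at 37°C. All cells were of this 1 line and carried no further alteration in the labels, and nothing in the labels ties a control library to a heat shock library. The study's text speaks of RNA collected after the heat, whereas the labels give only the time in the bath.

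In this pathway, each of the kinases senses a different stress (heme deficiency and mitochondrial stress, double-stranded RNA, misfolded protein in the endoplasmic reticulum, or amino acid shortage) and phosphorylates eIF2alpha, which blocks the exchange factor eIF2B and lowers general translation. A few mRNAs with upstream open reading frames, ATF4 among them, are then translated better, and ATF4 switches on genes of amino acid supply together with DDIT3 and PPP1R15A. The product of PPP1R15A reverses the phosphorylation, and that of PPP1R15B does so in unstressed cells. Much of this control acts on translation and on protein phosphorylation, neither of which an RNA library measures.

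The deposited value of a transcript is its FPKM, a fragment count corrected for transcript length and for the size of the library. For each gene, the FPKM of its annotated and assembled transcripts was summed in each library (the summed FPKM). The libraries stood apart in a way that the groups did not account for. Over 983 genes above 10 FPKM in all 6 libraries, the libraries differed by a common factor of 0.948, 0.439 and 0.967 in control replicates 1 to 3 and of 2.15, 2.34 and 0.492 in heat shock replicates 1 to 3. Heat shock replicate 3 thus resembled control replicate 2 and not the other two heat shock libraries in its scale, and 3 libraries (control replicates 1 and 2 and heat shock replicate 3) held between 141632 and 194489 single-exon transcripts with no strand, against 17304 to 45600 in the other 3. The median gene lay 0.45 higher on the log2 scale in heat shock as deposited and 0.21 lower after division by the common factor (log2 change -0.21), so each member is given on both scales.

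Another scale was added after the values were seen. A sum gives an assembled piece of 484 bases, as listed for PPP1R15A, the same weight as a whole transcript. The exon level is therefore also given, which is the FPKM covering each annotated exon base, averaged over the exon bases of the gene and divided by the library's common factor. On this scale 11745 genes were tested, again with 9 of the 10 members. Of 6 heat shock genes listed as a check, 4 (HSPA1A, HSPA1B, DNAJB1 and HSPA8) lay above every control on this scale in all 3 libraries labelled heat shock, as did 176 of all 11745 genes tested, and HSPH1 and BAG3 overlapped. The exon level of DNAJB1, a co-chaperone of HSP70, was 7.32, 9.64 and 9.23 in the control libraries and 34.7, 31.9 and 69.9 in the heat shock libraries. That of HSPA1B, an inducible HSP70 that may share reads with its near-identical copy HSPA1A, was 2.11, 3.08 and 2.01 against 7.92, 7.59 and 9.43. Even these did not pass the adjustment over all genes, with a log2 change of 2.17 ± 0.31 (SE; limma adjusted p = 0.869) for DNAJB1. The summed exon level of 6 genes known from HEK293 cells was 208 to 274 in control and 241 to 271 in heat shock. Most of that sum was VIM (183 to 251), and KRT18 had 12.2 to 16.2. KRT8, PAX2, NEFM and INA were each at most 4.67, and so did not stand out from the collagen genes. The 3 blood cell genes summed to at most 0.929 and the 2 fibroblast collagen genes to at most 4.03.

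No member was called in the limma fit over all genes (Benjamini-Hochberg adjusted p under 0.05 and more than 2-fold) as deposited, after the common factor or on the exon level. Over all genes tested, 3 of 13025 (0.0230%) were called as deposited and 0 of 13025 and 0 of 11745 on the other scales, so a call was rare for any gene. At an unadjusted p under 0.05, 1 of 9 members was higher as deposited, beside 2.07% of all genes, and 0 were lower, beside 1.61%. That gene was PPP1R15A. It was also the only such member after the common factor (1 of 9 higher, beside 0.737% of all genes, and 0 lower, beside 2.49%), and on the exon level there was none (beside 0.587% higher and 2.08% lower). The median log2 change over the 9 members was 0.60 as deposited, beside 0.45 over all genes, and -0.0097 after the common factor, beside -0.21. On the exon level it was -0.017, beside -0.12, and 7 of the 9 members lay within 0.1 of no change, beside 34.7% of all genes. All 9 lay within 0.5, beside 83.7% of all genes. The 7 included DDIT3 (log2 change 0.022 ± 1.08, SE), for which the comparison was unresolved. They also included PPP1R15A (-0.017 ± 0.26, SE), whose level averaged a higher last exon with lower other exons in heat shock. Changes are of FPKM + 1, which understates changes of low genes. EIF2AK4, counted within 0.5, had a heat shock mean of 0.584 times its control mean. These counts of estimates near no change thus do not show that each member was stable. In these bulk libraries, fewer cells with an RNA and less of it per cell cannot be told apart.

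**Figure D1:**
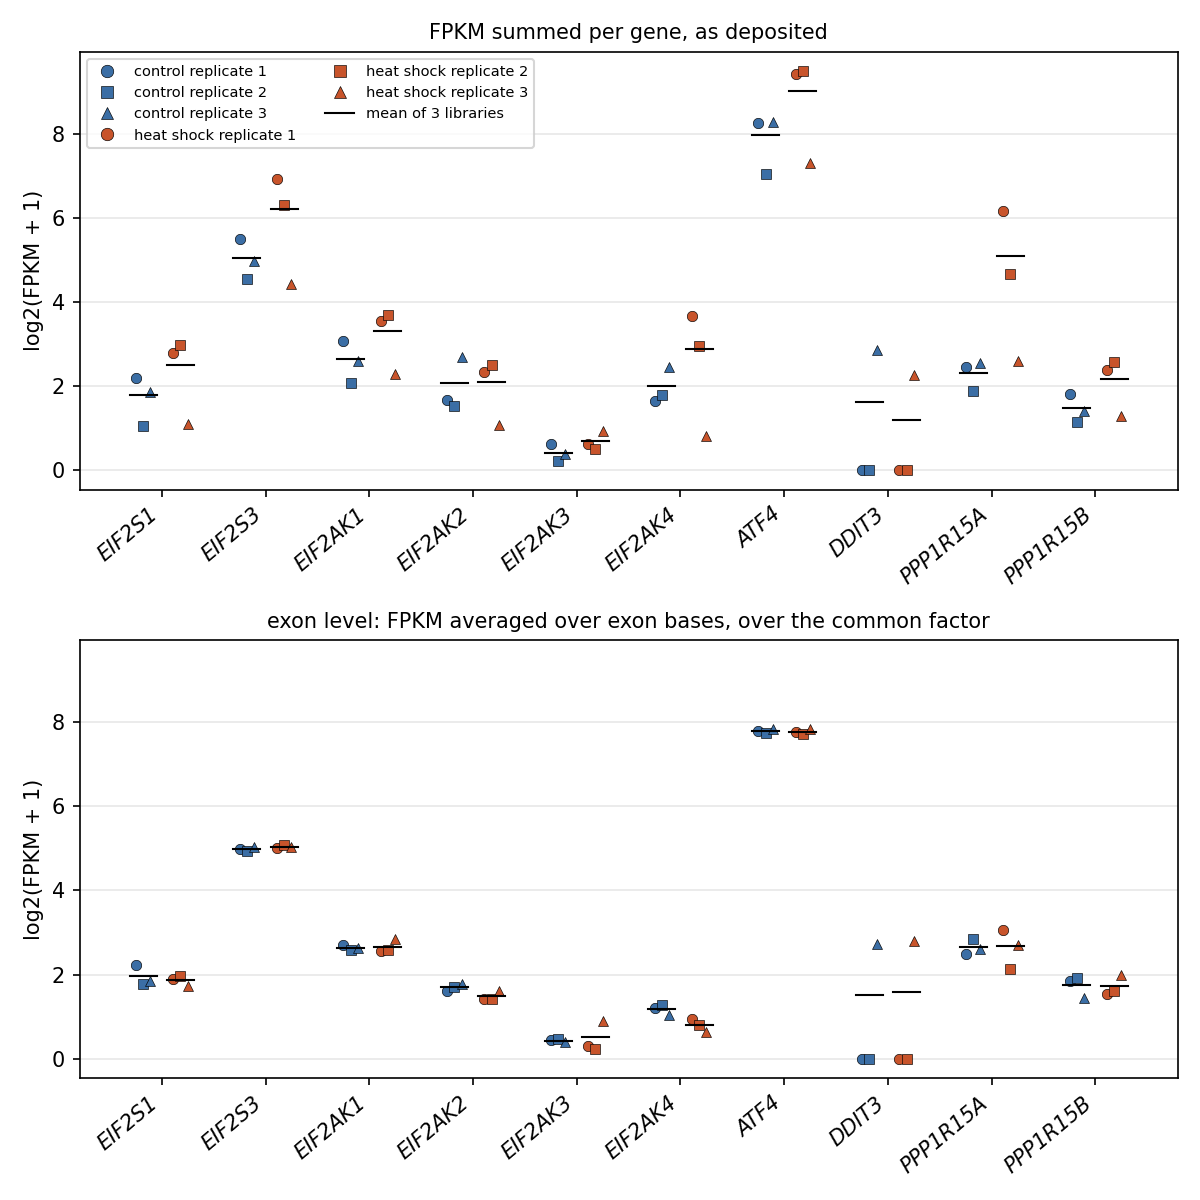
Level of the 10 members in each library on a log2(FPKM + 1) axis, as the summed FPKM deposited (top) and as the exon level divided by the common factor (bottom), with blue points for control, orange points for heat shock, a marker shape for each replicate and a bar at the mean of 3 libraries. As deposited, heat shock replicates 1 and 2 lie above heat shock replicate 3 for 8 of the 10 genes, whereas on the exon level ATF4 and EIF2S3 lie nearly level across all 6 libraries.

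The eIF2 subunits were expressed in every library. EIF2S3 (chromosome X, 24073065 to 24096927, plus strand, hg19), whose product binds the initiator tRNA and GTP, had a summed FPKM of 43.9, 22.1 and 30.4 in the control libraries and 120.3, 77.8 and 20.5 in the heat shock libraries. Heat shock replicates 1 and 2 were above all controls and replicate 3 was below them, and the log2 change was 0.89 ± 0.93 (SE; limma adjusted p = 0.710). On the exon level the same gene had 30.5, 29.7 and 32.0 against 31.3, 32.6 and 31.6, a coefficient of variation of 3.36% over the 6 libraries. The groups overlapped, and the log2 change of 0.051 had a 95% interval of -0.081 to 0.18.

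EIF2S1 (chromosome 14, 67827034 to 67853233, plus strand), whose product carries the serine that the kinases phosphorylate, had a summed FPKM of 3.54, 1.05 and 2.63 in control and 5.90, 6.88 and 1.13 in heat shock. Again heat shock replicates 1 and 2 were the highest, while replicate 3 lay beside control replicate 2. Its exon level was 3.66, 2.45 and 2.59 against 2.70, 2.88 and 2.32, with control replicate 1 the highest of the 6, and the log2 change was -0.091 (95% interval -0.50 to 0.32). EIF2S2, the beta subunit, which was not among the members, had an exon level of 30.8, 26.2 and 28.5 against 28.9, 28.4 and 29.8, close to that of EIF2S3 and about 10 times that of EIF2S1. The change of EIF2S2 was 0.029 ± 0.072 (SE) on the log2 scale.

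Much of the summed FPKM of EIF2S3 sat in assembled transcripts at its 3′ end. In heat shock replicate 1, an assembled transcript of 1740 bases held 89.8 FPKM and the annotated transcript 30.5. Such transcripts held 74.8% and 85.6% of the sum in control replicates 1 and 2, 74.7% and 83.7% in heat shock replicates 1 and 3, and 0% in control replicate 3 and heat shock replicate 2. They occurred in both groups.

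Among the kinases, EIF2AK1 (chromosome 7, 6061878 to 6098860, minus strand), which responds to low heme, was the most abundant. Its summed FPKM was 7.31, 3.16 and 5.06 in control and 10.6, 11.9 and 3.87 in heat shock. Its exon level was 5.54, 4.99 and 5.15 against 4.85, 4.99 and 6.14, and the groups overlapped, with a log2 change of 0.018 (95% interval -0.27 to 0.30).

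EIF2AK2 (chromosome 2, 37332284 to 37384190, minus strand), the kinase that binds double-stranded RNA, had a summed FPKM of 2.18, 1.87 and 5.41 in control and 4.05, 4.59 and 1.08 in heat shock, a log2 change of 0.0022. After the common factor the order separated, with 2.30, 4.26 and 5.59 in control and 1.88, 1.96 and 2.20 in heat shock (lower without overlap, the state of 1 of 9 members, beside 5.38% of all genes). On the exon level, 2.04, 2.27 and 2.43 stood against 1.68, 1.68 and 2.04. All 3 heat shock libraries were the lowest on these 2 scales, although heat shock replicate 3 and control replicate 1 were nearly equal on the exon level. The log2 change was -0.69 ± 0.33 (SE; limma adjusted p = 0.913) after the common factor and -0.22 ± 0.14 (adjusted p = 0.869) on the exon level.

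EIF2AK4 (chromosome 15, 40226347 to 40327797, plus strand), the sensor of uncharged tRNA, had the widest disagreement between scales among the kinases. Its summed FPKM was 2.12, 2.45 and 4.46 in control and 11.7, 6.73 and 0.746 in heat shock, so that heat shock held both the 2 highest libraries and the lowest. Its exon level was 1.31, 1.40 and 1.07 against 0.907, 0.744 and 0.553, lower in all 3 heat shock libraries than in any control, with a log2 change of -0.38 ± 0.17 (SE; limma adjusted p = 0.869). The exact permutation test of these values gave p = 0.1, two-sided, which is the smallest that 3 libraries against 3 allow. Within the libraries with many and with few strandless transcripts the log2 change of the exon level was -0.60 and -0.18. For EIF2AK2 it was -0.055, near no change, and -0.36. Each of these values has 1 library on one side, so they are no replicated agreement in direction. Not overlapping and lower was the state of 2 of the 9 members tested on the exon level, EIF2AK2 and EIF2AK4, beside 5.53% of all genes. The minimum of 1 FPKM was applied before division by the common factor. At that step EIF2AK4 averaged 0.960 in control and 1.34 in heat shock, and after division its mean over all libraries was 0.997. EIF2AK4 thus entered this count only through the heat shock libraries, and the count lends no support to a lower level.

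In heat shock replicates 1 and 2, and in no control library, EIF2AK4 was listed with a single-exon transcript that began at the first base of the gene and ran 640 and 658 bases, of which 446 and 464 bases lay in the first intron. These transcripts held 6.0 FPKM (Cufflinks 95% interval 3.77 to 8.22) and 5.13 FPKM (3.15 to 7.12), more than the 0.258 and 1.60 FPKM of the annotated transcript in the same libraries. Heat shock replicate 3 had no such transcript.

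EIF2AK3 (chromosome 2, 88856259 to 88927094, minus strand), the kinase of the endoplasmic reticulum, was the least abundant member. Its summed FPKM was 0.526, 0.160 and 0.291 in control and 0.541, 0.409 and 0.884 in heat shock. The groups overlapped, and the exact permutation test gave p = 0.2, two-sided. Heat shock replicate 3 was the highest, and on the exon level it had 0.858 against 0.171 to 0.374 in the other 5 libraries.

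ATF4 (chromosome 22, 39916569 to 39918691, plus strand) was the most abundant member, and all of its FPKM was given to NM_182810, while NM_001675 was listed at 0 in every library. Its summed FPKM was 305.3, 130.4 and 309.2 in control and 681.1, 712.0 and 157.6 in heat shock. As deposited, therefore, heat shock replicates 1 and 2 were above all controls and replicate 3 lay between them, with a log2 change of 0.88 ± 0.93 (SE; limma adjusted p = 0.710). After the common factor the same libraries held 322, 297 and 320 in control and 316, 304 and 320 in heat shock. These 6 values had a coefficient of variation of 3.29%, and the log2 change of 0.0034 had a 95% interval of -0.17 to 0.17. On the exon level, the interval was -0.15 to 0.12. Within the libraries with many and with few strandless transcripts, the change after the common factor was 0.050 and -0.044, each with 1 library on one side. No assembled transcript was grouped with ATF4 in any library.

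DDIT3 (chromosome 12, 57910371 to 57914300, minus strand), a partner and target of ATF4, was listed at 0 in 4 of the 6 libraries. It had 6.20 FPKM in control replicate 3 and 3.79 FPKM in heat shock replicate 3, each on another annotated transcript (NM_001195054 and NM_001195057). After the common factor these were 6.41 and 7.69. The 95% interval of the log2 change, -2.86 to 3.02, left the comparison unresolved. Of all genes tested, 11.3% were listed at 0 in at least 1 library and at 1 FPKM or more in another, so a listed 0 was no proof of absence.

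The last 68 bases of DDIT3 overlap the end of MARS1, a tRNA synthetase gene on the opposite strand, and the labels name no strand-marking library kit, so that reads in the overlap cannot be told apart. MARS1 itself had an exon level of 17.0, 19.2 and 16.8 in control and 14.0, 13.3 and 12.0 in heat shock. All heat shock libraries were lower, with a log2 change of -0.40 ± 0.090 (SE; limma adjusted p = 0.869). The deposited locus that bears the name DDIT3 runs from 57881736 to 57914300 and thus spans both genes.

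PPP1R15A (chromosome 19, 49375649 to 49379319, plus strand) had the largest change among the members in summed FPKM, as deposited and after the common factor, but not on the exon level, where EIF2AK4 had it. Its promoter and that of PPP1R15B are printed, because the only matches to the motifs searched among the members were there. Each run is the 250 bases before the gene's start in GRCh38.p14, from RefSeq, on the gene's strand, and capitals mark the match.

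PPP1R15A, chr19:48872171-48872420, plus strand: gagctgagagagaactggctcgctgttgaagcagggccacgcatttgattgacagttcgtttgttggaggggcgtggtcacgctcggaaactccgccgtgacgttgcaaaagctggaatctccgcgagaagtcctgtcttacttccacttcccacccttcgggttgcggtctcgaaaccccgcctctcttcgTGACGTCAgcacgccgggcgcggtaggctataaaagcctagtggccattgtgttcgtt

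PPP1R15B, chr1:204411818-204412067, minus strand: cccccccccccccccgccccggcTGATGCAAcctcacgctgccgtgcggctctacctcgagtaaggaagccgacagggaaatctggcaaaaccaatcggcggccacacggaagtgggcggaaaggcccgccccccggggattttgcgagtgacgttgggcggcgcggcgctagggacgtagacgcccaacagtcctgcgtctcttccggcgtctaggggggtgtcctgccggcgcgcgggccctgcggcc

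In the PPP1R15A promoter the capitals mark a cAMP response element (TGACGTCA, which reads the same on both strands), at position -58 from the start. Windows with this match made up 1.85% of 35116 promoter windows of 300 bases. In the PPP1R15B promoter they mark a CHOP-ATF composite element (TGATGCAA or, on the other strand, TTGCATCA), at position -227, found in 0.866% of windows. A heat shock element (TTC, GAA and TTC in this order with 2 free bases between neighbours, or the opposite strand) was in no window of the 9 members that had one and in 0.490% of all windows. It was also in no window of HSPA1A, HSPA1B or DNAJB1, whose exon level was above every control in heat shock. This strict match thus missed genes that were higher in heat shock. Its absence from the members' windows therefore carries no information on them. These are matches of letters only, and no binding was measured.

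The summed FPKM of PPP1R15A was 4.43, 2.67 and 4.79 in control and 69.9, 24.3 and 5.03 in heat shock. Every heat shock library was above every control, yet replicate 3 exceeded control replicate 3 by little. The log2 change was 2.18 ± 0.85 (SE; limma adjusted p = 0.710). After the common factor the values were 4.68, 6.08 and 4.96 against 32.4, 10.4 and 10.2, with a log2 change of 1.39 ± 0.46 (SE; limma adjusted p = 0.913), and the exact permutation test gave its smallest p of 0.1, two-sided. Higher without overlap was the state of 1 of 9 members on each of these scales, beside 3.71% and 2.01% of all genes. Within the 3 libraries with many strandless transcripts, where heat shock replicate 3 is set against control replicates 1 and 2, the log2 change after the common factor was 0.82, and within the other 3 it was 1.71. Neither set allows a test, with 1 library on one side.

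This difference lay at the 3′ end of the gene. Heat shock replicate 1 listed a single-exon transcript of 484 bases, covering the last exon, at 66.4 FPKM (95% interval 57.1 to 75.7). Heat shock replicate 2 listed one of 912 bases at 20.1 FPKM (16.8 to 23.4), and heat shock replicate 3 one of 1898 bases at 2.91 FPKM (2.12 to 3.70). In heat shock replicates 1 to 3, 35, 463 and 1449 bases of these transcripts lay outside the annotated exons. Those of replicates 2 and 3 also ran past the annotated end of the gene. No control library listed a transcript confined to this end. The annotated transcript, NM_014330, had 1.97, 1.12 and 4.79 FPKM in control and 3.45, 4.26 and 0.811 FPKM in heat shock, and these overlapped.

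**Figure D2:**
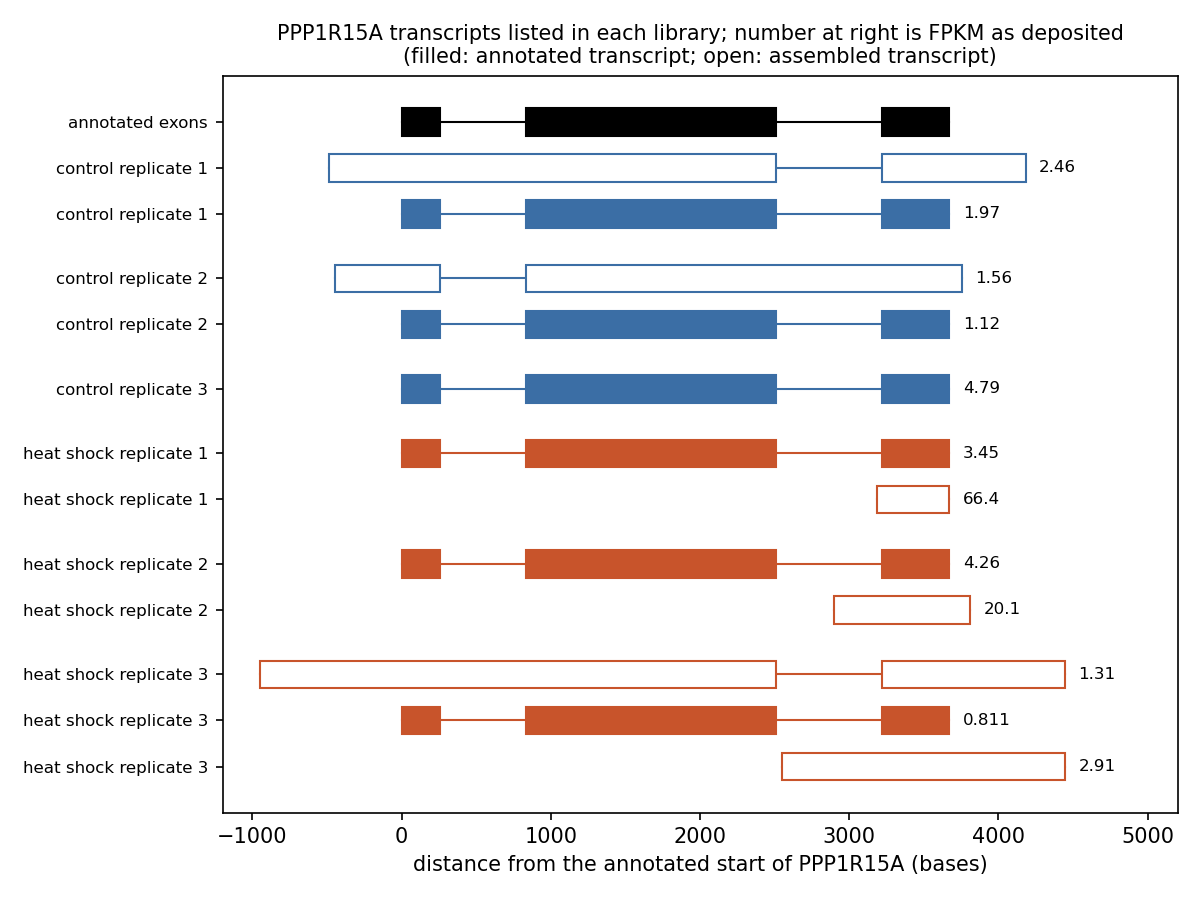
Transcripts listed for PPP1R15A in each library (blue control, orange heat shock, filled boxes annotated exons, open boxes assembled exons), drawn against the distance in bases from the annotated start, with the deposited FPKM of each at its right. Each heat shock library has an assembled transcript of a single box that covers the last exon, at 66.4, 20.1 and 2.91 FPKM. The assembled transcripts of control replicates 1 and 2 also cover the last exon, but run on to the first exon.

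In the last exon of PPP1R15A (449 bases), the exon level was 4.58, 6.24 and 5.04 in control and 32.0, 10.2 and 10.4 in heat shock. In the first exon (260 bases) and the second (1674 bases), it was again 4.58, 6.24 and 5.04 in control but 1.58, 1.78 and 4.36 in heat shock. The last exon was thus higher and the 2 others lower in all 3 heat shock libraries. In the 2 others, however, heat shock replicate 3 (4.36) and control replicate 1 (4.58) were nearly equal. These levels come from the FPKM of listed transcripts, not from read coverage. Over the whole gene the level overlapped, at 4.58, 6.24 and 5.04 against 7.31, 3.37 and 5.49 (log2 change -0.017, 95% interval -0.65 to 0.61). Over all genes with at least 1000 exon bases, the last 500 bases were higher without overlap in 1.35% and the bases before them lower without overlap in 4.63%. Both held for PPP1R15A and for 15 of the 11394 genes in all (0.132%). This split was chosen after the values of PPP1R15A were seen, and it is given with no test.

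The reads behind the 3′ transcripts were not analysed here. The ratio of the last 500 exon bases to the rest was built from the FPKM of the listed transcripts, not from read coverage. ATF4 and PPP1R15B had no assembled transcript, so their ratio was fixed and could not show a difference between libraries. Among the other members, the ratio was at most 1.08 in EIF2S1, and it was 1.00 in PPP1R15B and 1.65 in ATF4 in each of the 6 libraries. In EIF2S3 this ratio was 1.62, 1.99 and 1.00 in control and 2.02, 1.00 and 1.41 in heat shock, with the high values in both groups. In EIF2AK4 it was 1.42, 3.87 and 4.21 in control and 2.63, 0.889 and 0.627 in heat shock. In the other kinases it was at most 1.57, and in the 2 libraries that listed DDIT3 it was 1.32 and 1.71. In PPP1R15A it was 18.3, 5.23 and 2.23 in heat shock. It was 1.00 in each control library, where every listed transcript covered all exons of the gene.

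PPP1R15B (chromosome 1, 204372492 to 204380944, minus strand), the constitutive counterpart, had a summed FPKM of 2.49, 1.20 and 1.64 in control and 4.17, 4.90 and 1.44 in heat shock. Its exon level of 2.57, 2.79 and 1.73 against 1.91, 2.05 and 2.97 overlapped, with a log2 change of -0.023 (95% interval -0.53 to 0.48). No assembled transcript was grouped with it.

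**Figure D3:**
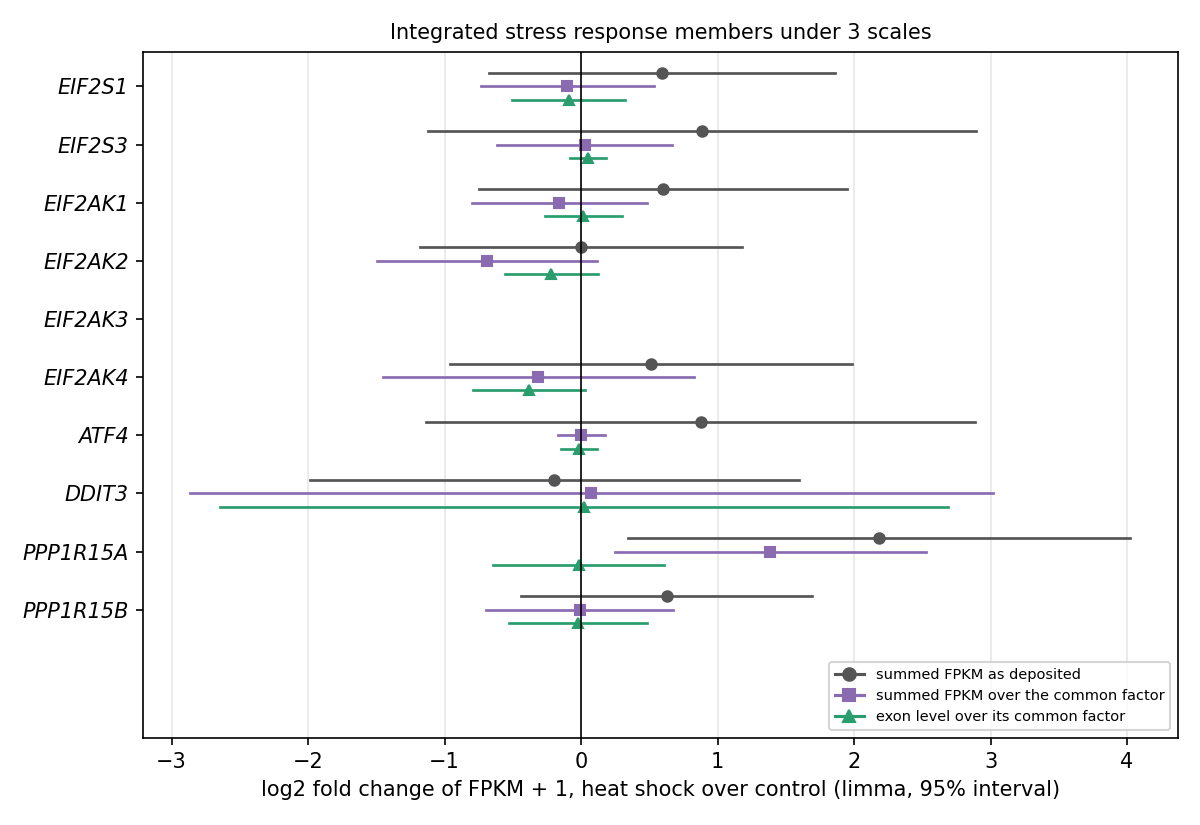
Log2 change of FPKM + 1 (heat shock over control) for the members in the limma fit, with 95% intervals, on the summed FPKM as deposited (grey circles), after the common factor (violet squares) and on the exon level (green triangles); EIF2AK3 was under the minimum and has no estimate. PPP1R15A goes from 2.18 to 1.39 to -0.017, and ATF4 from 0.88 to 0.0034 with an interval of -0.17 to 0.17 after the common factor.

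Ranked by the mean exon level over all 6 libraries, ATF4 (220 ± 7.57, SD, n = 6) came first and EIF2S3 (31.3 ± 1.05) next, and neither overlapped its neighbour. PPP1R15A (5.34 ± 1.36) and EIF2AK1 (5.28 ± 0.484) overlapped each other, and both mean levels were above that of EIF2S1 (2.77 ± 0.479). From EIF2S1 downward through PPP1R15B, EIF2AK2, DDIT3, EIF2AK4 (0.997 ± 0.327) and EIF2AK3 (0.380 ± 0.246), each gene overlapped the next.

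Around the members, 49 further genes of the pathway were listed in 5 groups, and 46 were tested. None was called on any of the 3 scales. At an unadjusted p under 0.05, 2 of 46 were higher and 0 lower as deposited, beside 2.07% and 1.61% of all genes. After the common factor 3 were higher and 2 lower, beside 0.737% and 2.49%, and on the exon level 2 were higher and 2 lower, beside 0.587% and 2.08%. The median log2 change of the 46 was 0.65 as deposited, -0.083 after the common factor and -0.054 on the exon level, beside 0.45, -0.21 and -0.12 over all genes, and 42 of 46 lay within 0.5 of no change on the exon level, beside 83.7% of all genes.

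Among the 23 tested targets of ATF4 and CHOP, DDIT4, an inhibitor of mTORC1 signalling, had an exon level of 29.6, 30.8 and 38.8 in control and 58.8, 37.2 and 61.2 in heat shock. Heat shock replicates 1 and 3 were the highest, while replicate 2 lay just below control replicate 3, and the log2 change was 0.62 ± 0.22 (SE; limma adjusted p = 0.869). SLC3A2, the heavy chain of amino acid transporters, had 16.6, 14.4 and 14.1 against 20.9, 16.0 and 19.8, a log2 change of 0.30 ± 0.12 (limma adjusted p = 0.869). Its heat shock replicate 2 lay within the control range.

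Of the other targets, PHGDH, the first enzyme of serine synthesis, had an exon level of 268 in heat shock replicate 1 and 51.8 to 65.6 in the other 5 libraries (log2 change 0.61 ± 0.62, SE). PCK2, a mitochondrial enzyme of gluconeogenesis, had 4.64, 4.60 and 5.02 against 4.23, 2.67 and 6.01. SESN2, a leucine sensor of the mTORC1 pathway, had 9.0, 7.43 and 7.23 against 7.37, 4.47 and 8.02. GDF15, a secreted stress cytokine outside that rule and singled out after its values were seen, was lower in every heat shock library, at 0.120, 0.416 and 0.888 against 2.02, 3.84 and 1.36 (log2 change -1.18 ± 0.34, SE; limma adjusted p = 0.869).

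Among the kinase regulators, GCN1, which activates GCN2 on stalled ribosomes, rested on how transcripts were summed. Its summed FPKM after the common factor was listed at 0 in control replicates 1 and 3 and at 2.68 in control replicate 2, against 7.78, 7.28 and 9.64 in heat shock. On the exon level the 6 values were 3.10, 2.75 and 2.41 against 2.58, 2.36 and 3.30, which overlapped. PRKRA, a protein activator of PKR, had 7.42, 6.84 and 10.0 against 5.53, 5.54 and 4.04 in summed FPKM after the common factor and 4.26, 3.55 and 4.55 against 4.25, 4.20 and 3.13 on the exon level. EIF2B4, a subunit of the eIF2B exchange factor, had 28.6, 51.9 and 19.4 against 16.0, 8.72 and 10.3 in summed FPKM after the common factor and 6.50, 9.59 and 8.74 against 7.59, 7.88 and 9.51 on the exon level. For all 3 genes the separation seen in the sums was not seen over the exon bases.

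**Figure D4:**
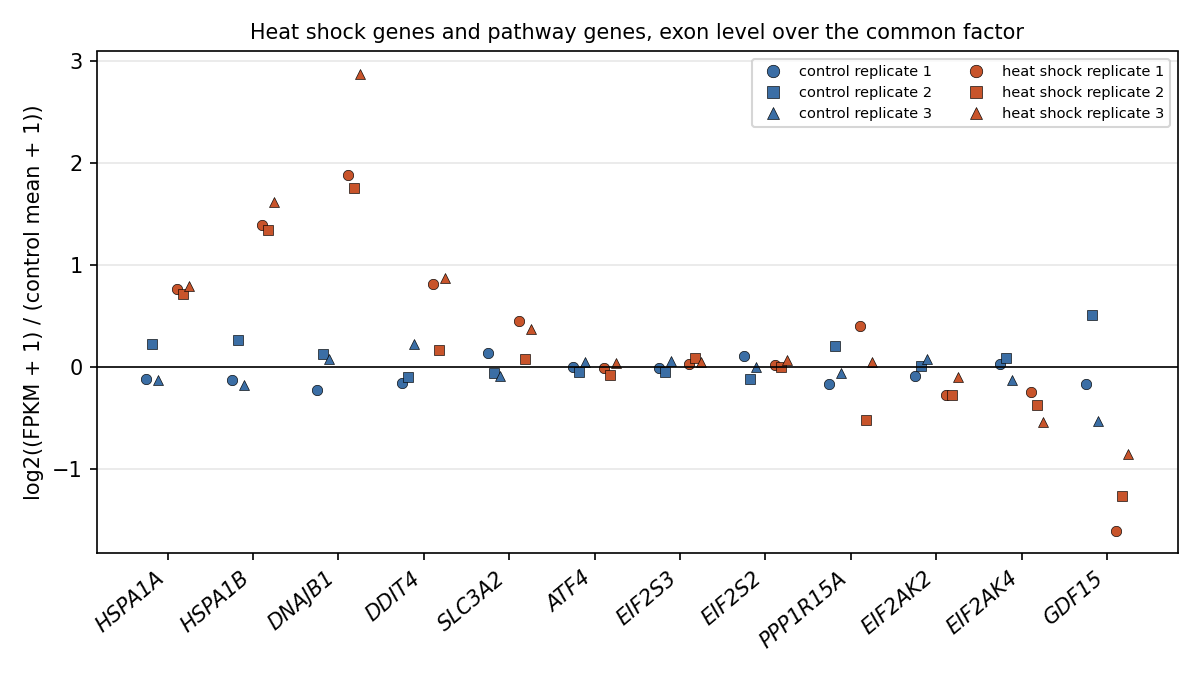
Exon level of each library over the control mean, as log2((FPKM + 1) / (control mean + 1)), for the heat shock genes HSPA1A, HSPA1B and DNAJB1 and for members and pathway genes (blue control, orange heat shock, a marker shape for each replicate). The heat shock genes lie above control in all 3 heat shock libraries, ATF4, EIF2S3 and EIF2S2 lie near 0, and EIF2AK2, EIF2AK4 and GDF15 lie below control.

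For 3 members, the genes averaging 10 FPKM or more whose level correlated most with theirs were named. The correlation used log2(FPKM + 1) after the common factor, over 6 points that share their libraries, and does not compare the size of differences. For PPP1R15A these were UBB (Pearson r = 0.99), a polyubiquitin gene, SNHG5 (r = 0.96) and CKB (r = 0.95). UBB had a summed FPKM of 575, 557 and 538 in control and 1600, 835 and 768 in heat shock on that scale. Heat shock replicate 1 was also the highest library for SNHG5 (335, elsewhere at most 272), for CKB (315, elsewhere at most 235) and for PPP1R15A. In that library 95.1% of the PPP1R15A sum was the assembled transcript of 484 bases. These correlations thus rest largely on 1 library. For ATF4 they were PDCD6 (r = 0.97), NDUFA5 (r = 0.94) and RPL37 (r = 0.93), the highest among 2916 genes. PDCD6 ran from 0 to 35.1 over the libraries on that scale, whereas ATF4 ran only from 297 to 322. For DDIT3 they were USP39, LAPTM4A and SPEN (r = 0.99 each). The last 3 had their 2 highest values in the same libraries as DDIT3, control replicate 3 and heat shock replicate 3.

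The deposited comparison also gives 1 pooled FPKM for each group. The authors' pooled values for ATF4 were 320.6 in control and 1418 in heat shock, and for EIF2S3 42.8 and 195. For 8 of the 10 members the pooled heat shock value exceeded the highest summed FPKM of any single heat shock library, which for ATF4 was 712.0 and for EIF2S3 120.3. The exceptions were PPP1R15A (23.3 pooled, 69.9 highest) and EIF2AK4 (3.41 pooled, 11.7 highest). Averaged over exon bases, without the common factor, their highest heat shock library was at 16.0 and 1.98, below the pooled values. The 8 members included DDIT3, whose deposited locus also spans MARS1. How the pooled values were scaled between the libraries is not given in the sources used here.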

How the data were processed

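Reads were trimmed by the authors with Trimmomatic 0.3.0 and mapped to hg19 by TopHat2, and Cufflinks 2.0.2 then built transcripts library by library with the help of the hg19 annotation (tools and versions per the labels and the study's methods). The deposited values are FPKM with no read counts. The deposited comparison from Cuffdiff holds 1 pooled FPKM for each group, and its fold changes, p-values and q-values were not used.

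A gene's FPKM in a library is the sum over its transcripts. For testing, log2(FPKM + 1) of all genes averaging 1 FPKM or more, before any division by the common factor, entered limma 3.58.1 (R 4.3.3, lmFit, then eBayes with a trend). Benjamini-Hochberg adjustment followed. This scale understates changes of low genes. The step was also run on simulated data with large planted changes and independent noise for each gene. Such data lack the scale differences that genes of a library share here, so that run lends no support to these results. Fold changes are heat shock over control. The common factor is a median-of-ratios size factor, and the exon level has its own, over 812 genes.

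The members and the pathway lists were chosen with earlier results of these data known. Most names printed follow a rule. These are the members, EIF2S2, 3 heat shock genes and the 3 genes most correlated with each of ATF4, DDIT3 and PPP1R15A. From the lists come the 4 largest increases and 4 largest decreases after the common factor, among those averaging 5 FPKM or more. HSPA8, HSPH1, BAG3, MARS1 and GDF15 were named outside this rule. The exon level and the split at the last 500 bases were added after the values were seen. Of depth, the files show only coverage divided by FPKM, with a range of 1 to 2.03 relative to the shallowest. Cufflinks intervals say nothing of the spread between cultures. The libraries are separate samples in the labels, so p-values measure the spread between these samples. Replicate numbers did not pair the samples. No 2 libraries of a group agreed beyond 2.97% of genes within 1 percent, so all 6 were counted.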

Additional observations from a re-analysis of the deposited data

How the results depend on the processing

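No member was called under any of the 32 alternatives tried. The direction of their changes depended on the scale. As log2 changes, the sign turned with the common factor to -0.10 for EIF2S1, -0.16 for EIF2AK1, -0.69 for EIF2AK2, -0.31 for EIF2AK4, 0.077 for DDIT3 and -0.0097 for PPP1R15B. With TPM it turned to -0.0082 for EIF2S1, -0.059 for EIF2AK1, -0.73 for EIF2AK2, -0.27 for EIF2AK4 and 0.15 for DDIT3. With the exon level over its common factor it turned to -0.091 for EIF2S1, -0.22 for EIF2AK2, -0.38 for EIF2AK4, -0.017 for ATF4, 0.022 for DDIT3, -0.017 for PPP1R15A and -0.023 for PPP1R15B. A term for the 3 libraries with most strandless transcripts gave -0.40 for EIF2AK2 and -0.027 for EIF2AK4, and with the common factor -0.12 for EIF2S1, -0.78 for EIF2AK2, -0.52 for EIF2AK4 and 0.12 for DDIT3. EIF2AK2, at 0.0022 as deposited, also turned with median-of-ratios factors to -0.36 and with a pseudocount of 0.1 to -0.035. The cause was not tested. With 1 library left out, on the 3 scales, the log2 change ranged from -0.20 to 1.19 for EIF2S1, -0.18 to 1.61 for EIF2S3, -0.35 to 1.04 for EIF2AK1, -0.97 to 0.45 for EIF2AK2, -0.66 to 1.35 for EIF2AK4, -0.047 to 1.59 for ATF4, -0.96 to 1.04 for DDIT3, -0.23 to 3.12 for PPP1R15A, -0.17 to 1.02 for PPP1R15B, and 0 members and 0 pathway genes were called. Without heat shock replicate 3 the changes as deposited were largest, 1.59 for ATF4 and 3.12 for PPP1R15A, and the smallest adjusted p among the members was 0.0793 (limma). The count of all genes called, 3 as deposited, was 0 with the common factor, with no minimum and with the exon level over its factor, 1 with median-of-ratios factors, with eBayes without a trend and with annotated transcripts alone, 0 with the strandless term and the common factor, 5 with the exon level as deposited, and 0 to 10 with 1 library left out.

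Same-numbered control and heat shock libraries deviated together with correlations of 0.027, -0.33 and -0.38, so the numbers were not taken as pairs. With the replicate block the log2 changes were the same as without it, 0.88 for ATF4 and 2.18 for PPP1R15A, 0 members were called, 1 pathway gene (GCN1) was called and 17 genes in all. With the replicate block and the common factor, no gene was called, and the changes whose sign differed from the deposited scale were -0.10 for EIF2S1, -0.16 for EIF2AK1, -0.69 for EIF2AK2, -0.31 for EIF2AK4, 0.077 for DDIT3 and -0.0097 for PPP1R15B.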
